A study of Mus musculus with 2 samples.

Results

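The transcripts of interleukin-15 and of the chains that present and receive it were followed in single cells of subcutaneous A20 lymphomas, by the 4 genes Il15, Il15ra, Il2rb and Il2rg of the 28692 genes in the count files. They were chosen by symbol, and each symbol matched 1 row. Tumours came from Balb/c mice that carried A20, a B cell lymphoma line of the same strain, under the skin of the flank. One library of 10x Genomics 5′ single-cell RNA-seq came from the TAK-981 arm (7.5 mg/kg, intravenous) and 1 from the vehicle arm (20% HPbCD, a cyclodextrin solution, intravenous), both with tumours taken 8 h after dosing. TAK-981 inhibits the SUMO-activating enzyme, which starts the attachment of the small protein SUMO to other proteins. The sources used here do not give the number, age or sex of the mice behind each library, and all tumours grew from the 1 cell line.

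Interleukin-15 is a cytokine that keeps memory CD8 T cells and natural killer (NK) cells alive and dividing. Monocytes, macrophages and dendritic cells make it and hold it on their surface on its own receptor chain, encoded by Il15ra, from which it is shown to a neighbouring cell. The receiving cell binds it with CD122 (Il2rb), which is shared with the interleukin-2 receptor, and with the common gamma chain (Il2rg), which is shared by a family of cytokine receptors. The 2 chains signal through the kinases Jak1 and Jak3 to Stat5.

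Cells were sorted into classes by their unique molecular identifiers (UMIs, each standing for 1 captured RNA molecule), after barcodes with 10% or more mitochondrial UMIs were left out. T cells had at least 2 UMIs of Cd3d, Cd3e and Cd3g together, and numbered 45 in TAK-981 and 60 in vehicle tumours. Myeloid cells had at least 5 UMIs of Lyz2, and numbered 39 in TAK-981 and 44 in vehicle tumours. A20 cells had Cd79a with neither Cd3 nor Lyz2, and numbered 1754 in TAK-981 and 2191 in vehicle tumours. The T cells held 444730 UMIs in TAK-981 and 862615 UMIs in vehicle tumours, the myeloid cells 362880 in TAK-981 and 533937 in vehicle, and the A20 cells 32464036 in TAK-981 and 53011253 in vehicle. Outside the gates lay 182 kept cells of the TAK-981 and 160 of the vehicle library.

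Most cells of each class carried markers of its name. Cd3e, itself part of the T gate, had a UMI in 41 of 45 TAK-981 and 58 of 60 vehicle T cells. Trac, a T cell marker that the gate does not use, had one in 30 of 45 TAK-981 and 45 of 60 vehicle T cells. Cd14 had one in 36 of 39 TAK-981 and 41 of 44 vehicle myeloid cells, and Csf1r in 31 of 39 TAK-981 and 39 of 44 vehicle ones. Cd79b had one in 89.4% of TAK-981 and 92.9% of vehicle A20 cells, a marker that normal B cells of the host also carry. Markers also crossed the gates. B cell or A20 markers had a UMI in 17 of 45 TAK-981 and 25 of 60 vehicle T cells. T cell markers had one in 17.0% of TAK-981 and 22.9% of vehicle A20 cells. Barcodes over the mitochondrial limit numbered 376 in TAK-981 and 124 in vehicle tumours, the libraries shared 11 barcode sequences, and the TAK-981 cells were shallower in each class (median 7156 UMIs in TAK-981 against 9068 in vehicle T cells, 8287 in TAK-981 against 10636.5 in vehicle myeloid cells and 16195 in TAK-981 against 22309 in vehicle A20 cells). Levels are therefore given as UMIs per 1000000 UMIs of the class (CPM), and shares of cells also after each cell was thinned to 4000 UMIs. With 1 library per arm no test can be made, and the 95% intervals leave out any difference between mice, since they cover counting error only.

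Il15 RNA lay mainly in myeloid cells, and its level there was higher in the TAK-981 library. Il15 (ENSMUSG00000031712), the cytokine itself, had 43 UMIs in 39 myeloid cells of the TAK-981 library and 4 UMIs in 44 of the vehicle library. This was 118.5 CPM (interval 85.8 to 159.6) in TAK-981 against 7.49 CPM (2.04 to 19.2) in vehicle myeloid cells, a 15.8-fold higher level with an interval of 5.75 to 60.7, or a log2 ratio of 3.98 (2.52 to 5.92). The 2 counting intervals of the level do not overlap.

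The Il15 signal was spread over cells rather than held by 1 of them. Il15 had a UMI in 19 of 39 myeloid cells of the TAK-981 library (48.7%, exact interval 32.4 to 65.2) and in 3 of 44 of the vehicle library (6.82%, 1.43 to 18.7). In the TAK-981 library 20 cells had no UMI, 9 had 1, 5 had 2, 2 had 3, and 3 cells had 4, 6 and 8, so that the highest cell held 18.6% of the count. After thinning, 7 of 39 TAK-981 (17.9%) and 1 of 44 vehicle (2.27%) myeloid cells kept an Il15 UMI, and the order of the shares was the same at equal depth.

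Other cells held next to no Il15. There was 1 Il15 UMI in the 45 T cells of the TAK-981 library and 0 in the 60 of the vehicle library, too few for a ratio. A20 cells had 0 Il15 UMIs in 1754 cells of the TAK-981 and 2191 cells of the vehicle library, which by the rule of 3 counts allows a share of cells with a UMI of up to 0.171% in TAK-981 and 0.137% in vehicle tumours (exact upper bounds 0.210% in TAK-981 and 0.168% in vehicle). Against the floor of 3 counts over the A20 class, the myeloid level of Il15 was at least 1282-fold higher in TAK-981 and at least 132-fold higher in vehicle tumours. Of all Il15 UMIs in kept cells, 43 of 45 (95.6%) lay in myeloid cells in the TAK-981 library and 4 of 4 in the vehicle library, while myeloid cells were 1.93% of TAK-981 and 1.79% of vehicle kept cells.

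**Figure D1:**
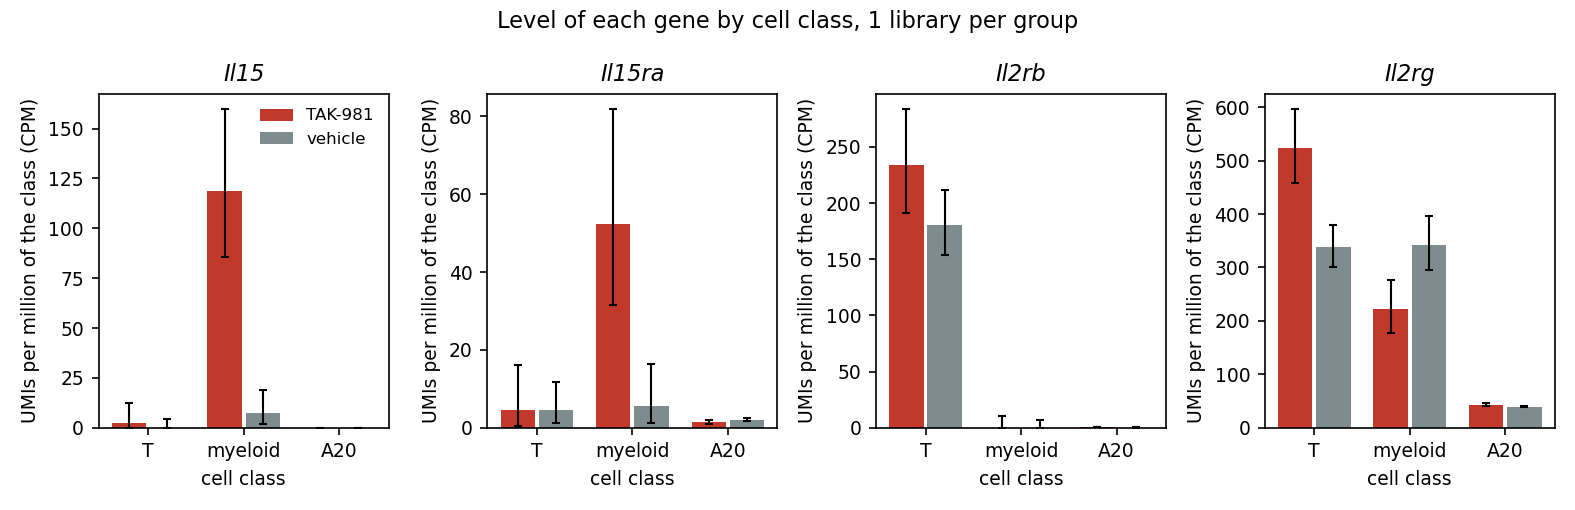
Level of each gene in T, myeloid and A20 cells, as UMIs per 1000000 of the class (CPM, linear axis from 0, a different range in each panel), with exact Poisson 95% intervals that cover counting error only. Red bars are the TAK-981 and grey bars the vehicle library, 1 library each. Il15 stands out in TAK-981 myeloid cells (118.5 CPM, against 7.49 CPM in vehicle myeloid cells), Il2rb in T cells of both libraries (234 CPM in TAK-981 and 181 CPM in vehicle), and Il2rg is present in all classes.

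Il15ra (ENSMUSG00000023206), the chain that presents the cytokine, was also higher in the myeloid cells of the TAK-981 library. It had 19 UMIs in TAK-981 and 3 UMIs in vehicle myeloid cells, or 52.4 CPM (31.5 to 81.8) in TAK-981 and 5.62 CPM (1.16 to 16.4) in vehicle, which is 9.32-fold higher with an interval of 2.74 to 49.2 and a log2 ratio of 3.22 (1.46 to 5.62). The count rested on 11 of 39 TAK-981 and 3 of 44 vehicle cells, and after thinning on 6 TAK-981 and 1 vehicle cells. The highest TAK-981 cell held 5 of the 19 UMIs.

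In myeloid cells 10.8% of 6417 genes, each with 10 or more UMIs over the pair of libraries, were at least 2-fold higher in the TAK-981 library, and 14.3% were at least 2-fold lower. Of the 3 members with that many UMIs there, Il15 and Il15ra were past 2-fold upward and Il2rg was within 2-fold. A larger upward ratio than that of Il15 was seen for 36 genes (0.561%) and a larger one than that of Il15ra for 66 genes (1.03%).

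Il15ra was not seen to be higher in the other classes. T cells had 2 Il15ra UMIs in TAK-981 and 4 in vehicle tumours, with a log2 ratio of -0.04 whose interval of -3.51 to 2.76 leaves the direction unresolved. A20 cells had 48 Il15ra UMIs in 45 cells (2.57%) of the TAK-981 library and 106 UMIs in 101 cells (4.61%) of the vehicle library, or 1.48 CPM in TAK-981 and 2.00 CPM in vehicle. The log2 ratio in A20 cells was -0.44, and its interval of -0.96 to 0.07 includes 0. At equal depth 0.513% of TAK-981 and 0.685% of vehicle A20 cells kept an Il15ra UMI.

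A20 cells, 86.8% of TAK-981 and 89.2% of vehicle kept cells, held most Il15ra UMIs (67.6% of them in TAK-981 and 92.2% in vehicle tumours). The myeloid share of Il15ra UMIs was 26.8% (interval 16.9 to 38.6) in the TAK-981 and 2.61% (0.541 to 7.43) in the vehicle library. Summed over all kept cells, Il15ra was at 2.02 CPM in TAK-981 and 2.04 CPM in vehicle tumours, a log2 ratio of -0.01 (-0.46 to 0.43), and the myeloid difference does not show in that sum. Il15 summed over all kept cells was at 1.28 CPM in TAK-981 and 0.0708 CPM in vehicle tumours, 18.1-fold higher with an interval of 6.60 to 69.3. Within the TAK-981 library the myeloid level of Il15ra was 35.4-fold (19.7 to 61.4) that of A20 cells, against 2.81-fold (0.570 to 8.44) in the vehicle library.

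**Figure D2:**
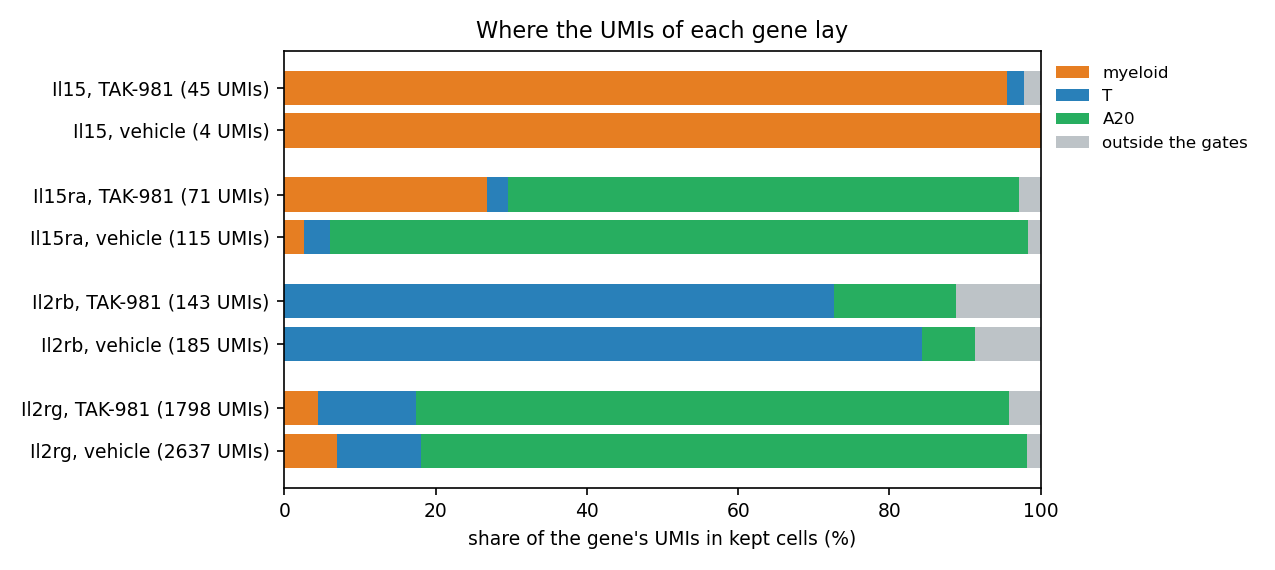
Share of each gene's UMIs (%) that lay in myeloid, T and A20 cells and in kept cells outside the gates, with the number of UMIs in brackets; the TAK-981 bar is above the vehicle bar. Il15 lay in myeloid cells (95.6% in TAK-981, 100% in vehicle), Il2rb mostly in T cells (72.7% in TAK-981, 84.3% in vehicle) and Il2rg mostly in A20 cells (78.3% in TAK-981, 80.2% in vehicle).

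The promoter of Il15ra, the presenting chain, is shown because Il15ra was higher in the TAK-981 myeloid cells, where interferon-stimulated genes were higher too, and that of Il2rg as the other member matched. RefSeq promoter windows (GRCm38.p6, 250 bases before to 50 after a start, 5′ to 3′ on the gene's strand) were matched for 2 of the 4 members, with 2 windows for Il15ra and 1 for Il2rg. Capitals mark each match to the interferon-stimulated response element, searched as GAAANNGAA on both strands, or to the gamma-activated site, searched as TTCNNNGAA on both strands.
Il15ra, first window, chr2:11705043-11705342, plus strand: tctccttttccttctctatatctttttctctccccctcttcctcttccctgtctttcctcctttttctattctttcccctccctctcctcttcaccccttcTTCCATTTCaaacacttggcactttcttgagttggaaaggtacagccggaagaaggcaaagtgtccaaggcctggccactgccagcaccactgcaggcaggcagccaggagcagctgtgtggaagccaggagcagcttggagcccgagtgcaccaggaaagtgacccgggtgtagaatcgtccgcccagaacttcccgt
Il15ra, second window, chr2:11705462-11705761, plus strand: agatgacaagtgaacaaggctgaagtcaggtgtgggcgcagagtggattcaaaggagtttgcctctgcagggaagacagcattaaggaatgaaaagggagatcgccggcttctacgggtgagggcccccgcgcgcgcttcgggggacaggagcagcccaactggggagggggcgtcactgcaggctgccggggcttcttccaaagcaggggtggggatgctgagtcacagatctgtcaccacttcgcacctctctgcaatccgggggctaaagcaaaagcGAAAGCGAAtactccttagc
Il2rg, chrX:101268206-101268505, minus strand: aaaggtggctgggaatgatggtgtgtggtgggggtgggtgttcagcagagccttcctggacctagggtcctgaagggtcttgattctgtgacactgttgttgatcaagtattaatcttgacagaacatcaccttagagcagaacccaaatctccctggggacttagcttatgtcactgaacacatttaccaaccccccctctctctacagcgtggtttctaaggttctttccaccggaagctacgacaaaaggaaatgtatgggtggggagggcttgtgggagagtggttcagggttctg
Each Il15ra window held 1 match to the interferon-stimulated response element, in the first before the start and on the opposite strand, in the second after the start and on the gene's strand. No window held a gamma-activated site, and the Il2rg window held neither motif. Of 32851 such windows, 8.56% held the first motif and 8.30% the second, and a match describes the letters only.

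Il15 and its presenting chain were found in some of the same myeloid cells. Of 39 TAK-981 myeloid cells, 8 (20.5%, interval 9.30 to 36.5) had UMIs of both Il15 and Il15ra, against 1 of 44 (2.27%, 0.0575 to 12.0) in the vehicle library. Within the TAK-981 library Il15ra had a UMI in 8 of the 19 cells with Il15 (42.1%) and in 3 of the 20 without (15.0%). After thinning, 1 TAK-981 and 0 vehicle cells had both.

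Most TAK-981 myeloid cells carried the monocyte genes Ccr2 and Ly6c2, with or without Il15. In the TAK-981 library Ccr2, a chemokine receptor of monocytes, had a UMI in 17 of the 19 cells with Il15 and in 14 of the 20 without. Ly6c2, a surface protein of inflammatory monocytes, had one in 18 of the 19 cells with Il15 and 15 of the 20 without. Median depth was 9318 UMIs in cells with Il15 and 8132.5 UMIs in those without. Summed over 30 interferon-stimulated genes in thinned cells, cells with Il15 had a median of 105 UMIs (lowest 26) and cells without it 37 (lowest 1), a description within 1 library with no test.

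The make-up of the myeloid gate differed between the libraries. Complement C1q genes, which mark resident macrophages, had a UMI in 0 of 39 TAK-981 and 8 of 44 vehicle myeloid cells, and none of those 8 held Il15. Without them the log2 ratio of Il15 was 3.66 (2.20 to 5.60) and that of Il15ra 2.90 (1.14 to 5.30), and both intervals still lay above 0. Dendritic cell markers had a UMI in 5 TAK-981 and 10 vehicle cells, and without these the ratio was 4.53 (2.57 to 7.63) for Il15 and 3.49 (1.41 to 6.64) for Il15ra. A UMI of this marker list does not by itself identify a dendritic cell. The list had one in 46.8% of TAK-981 and 52.0% of vehicle A20 cells, and in 53.3% of TAK-981 and 75.0% of vehicle T cells. Neutrophil markers had a UMI in 21 of 39 TAK-981 and 18 of 44 vehicle cells, with Cxcr2, Retnlg and Ly6g at 0 UMIs in both libraries. Without cells that carried any dendritic cell or neutrophil marker, Il15 had 12 UMIs in TAK-981 and 0 UMIs in vehicle cells, and Il15ra had 10 in TAK-981 and 1 in vehicle cells.

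**Figure D3:**
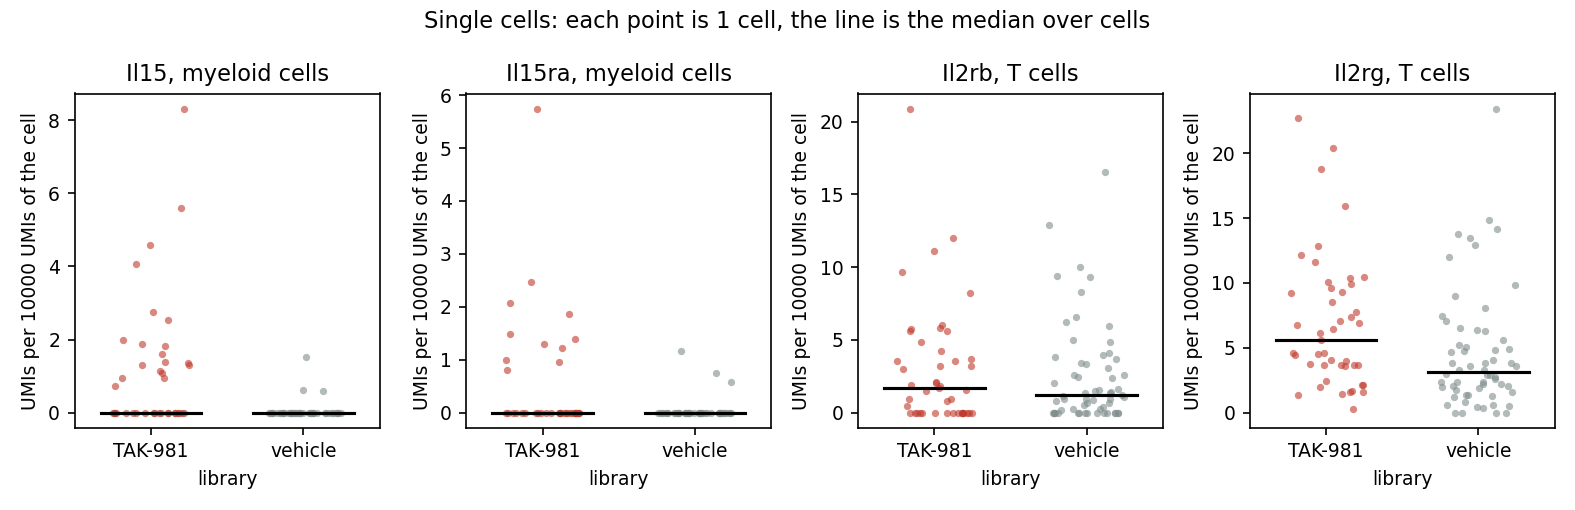
Each point is 1 cell, with its UMIs of the gene per 10000 UMIs of the cell, for Il15 and Il15ra in myeloid cells and Il2rb and Il2rg in T cells; the black line is the median over cells, and points are spread sideways at random. TAK-981 cells are red and vehicle cells grey. Il15 is above 0 in 19 of 39 TAK-981 and 3 of 44 vehicle myeloid cells, whereas the Il2rb and Il2rg values of T cells overlap widely.

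On the receiving side, Il2rb (ENSMUSG00000068227), the CD122 chain that carries the signal, had most of its UMIs in the T gate in both libraries. Part of its UMIs lay in cells with NK markers, in the T gate, in the A20 gate and outside the gates, as given below. T cells had 104 Il2rb UMIs in TAK-981 and 156 in vehicle tumours, or 234 CPM (191 to 283) in TAK-981 and 181 CPM (154 to 212) in vehicle. The log2 ratio was 0.37 with an interval of -0.00 to 0.74, so a difference was not resolved by the count. Il2rb had a UMI in 29 of 45 TAK-981 T cells (64.4%) and 44 of 60 vehicle T cells (73.3%), while after thinning the shares were 55.6% in TAK-981 and 45.0% in vehicle T cells. The order of the shares thus turned with depth.

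Il2rb had a UMI in 0 of 39 TAK-981 and 0 of 44 vehicle myeloid cells, which by the same rule allows a share of cells with a UMI, though not of cells expressing the gene, of up to 7.69% in TAK-981 and 6.82% in vehicle (exact upper bounds 9.03% in TAK-981 and 8.04% in vehicle). Against the floor of 3 counts over the myeloid class, the T cell level was at least 28.3-fold higher in TAK-981 and at least 32.2-fold higher in vehicle tumours. Of all Il2rb UMIs in kept cells, 72.7% in TAK-981 and 84.3% in vehicle tumours lay in T cells, which were 2.23% of TAK-981 and 2.44% of vehicle kept cells.

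In A20 cells Il2rb had 23 UMIs in 4 cells of the TAK-981 library and 13 UMIs in 6 cells of the vehicle library, or 0.708 CPM in TAK-981 and 0.245 CPM in vehicle. The log2 ratio of 1.53 (0.49 to 2.63) takes each UMI as independent, and 20 of the 23 TAK-981 UMIs came from 2 cells. NK cell markers had a UMI in 3 of the 4 TAK-981 carriers, which held 22 of the 23 UMIs, and in 1 of the 6 vehicle carriers, which held 5 of the 13. Without the A20-gate cells that carried an NK marker, 1 UMI in TAK-981 and 8 UMIs in vehicle cells were left and the log2 ratio was -2.29, so the upward ratio rests on these few cells. Outside the gates Il2rb had 16 UMIs in 4 TAK-981 cells and 16 UMIs in 3 vehicle cells, and an NK marker was carried by 3 of these TAK-981 and 3 of these vehicle cells. The NK-marked cells outside the gates held 14 of the 16 TAK-981 and 16 of the 16 vehicle UMIs.

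Among T cells Il2rb was not even. T cells with a Cd8a or Cd8b1 UMI (22 TAK-981 and 37 vehicle cells) had 295 CPM of Il2rb in TAK-981 and 198 CPM in vehicle tumours, a log2 ratio of 0.58 (0.10 to 1.05). T cells without one (23 TAK-981 and 23 vehicle cells) had 181 CPM in TAK-981 and 155 CPM in vehicle, a ratio of 0.23 (-0.39 to 0.84). Of these, cells with a Cd4 UMI (13 TAK-981 and 16 vehicle cells) had 166 CPM in TAK-981 and 203 CPM in vehicle, a ratio of -0.30 (-1.09 to 0.46). The interval of the CD8 cells left out 0 and that of the others did not, and the difference between them was not tested.

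T cells with a UMI of Foxp3, the factor of regulatory T cells (11 TAK-981 and 8 vehicle cells), had 376 CPM of Il2rb in TAK-981 and 418 CPM in vehicle, with a log2 ratio of -0.15 (-0.89 to 0.58). T cells with an NK marker (4 TAK-981 and 7 vehicle cells) had 997 CPM in TAK-981 and 314 CPM in vehicle, a ratio of 1.67 (0.82 to 2.50) that rests on 4 TAK-981 cells. They held 23 of the 104 TAK-981 and 30 of the 156 vehicle Il2rb UMIs of the T gate. Without the NK-marked cells the T cell ratio of Il2rb was 0.23 (-0.19 to 0.64), against 0.37 with them. Among these T cell subsets the highest Il2rb levels of either library were in the NK-marked and the Foxp3-marked cells.

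Il2rg (ENSMUSG00000031304), the common gamma chain, was higher in T cells and lower in myeloid cells of the TAK-981 library. T cells had 233 Il2rg UMIs in TAK-981 and 292 in vehicle tumours, or 524 CPM (459 to 596) in TAK-981 and 339 CPM (301 to 380) in vehicle, 1.55-fold higher with an interval of 1.30 to 1.84 and a log2 ratio of 0.63 (0.38 to 0.88). Il2rg had a UMI in 45 of 45 TAK-981 and 56 of 60 vehicle T cells, and after thinning in 86.7% of TAK-981 and 71.7% of vehicle T cells. Per cell, its UMIs per 10000 had a lowest value of 0.257, a median of 5.64 and a highest of 22.7 in TAK-981 T cells, and 0, 3.14 and 23.4 in vehicle T cells. The cells of the libraries thus overlapped over most of their range.

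In T cells 6.32% of 7868 genes were at least 2-fold higher in the TAK-981 library and 9.32% at least 2-fold lower. Neither of the 2 members with enough UMIs there, Il2rb and Il2rg, was past 2-fold, and 1094 genes (13.9%) had a larger upward ratio than Il2rg.

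The T cell ratio of Il2rg was 0.82 (0.46 to 1.18) in cells with a CD8 UMI and 0.39 (0.02 to 0.75) in those without, 0.79 (0.49 to 1.09) in cells without Foxp3 and -0.31 (-0.80 to 0.18) in those with it. Cells with Foxp3 had the highest Il2rg level, 777 CPM in TAK-981 and 963 CPM in vehicle tumours, and made up 11 of 45 TAK-981 and 8 of 60 vehicle T cells. Cells without Foxp3 had 466 CPM in TAK-981 and 269 CPM in vehicle. Without NK-marked cells the ratio was 0.57 (0.31 to 0.83). B cell or A20 transcripts at 5 or more UMIs were carried by 6 of 45 TAK-981 and 13 of 60 vehicle T cells, and without these the ratio was 0.49.

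In myeloid cells Il2rg had 81 UMIs in TAK-981 and 183 UMIs in vehicle tumours, or 223 CPM (177 to 277) in TAK-981 and 343 CPM (295 to 396) in vehicle, a log2 ratio of -0.62 (-1.01 to -0.23) and a level 1.54-fold lower in the TAK-981 library. It had a UMI in 26 of 39 TAK-981 and 40 of 44 vehicle cells, and after thinning in 51.3% of TAK-981 and 65.9% of vehicle cells. In the cells without a dendritic cell or neutrophil marker UMI there were 40 UMIs in TAK-981 and 88 UMIs in vehicle, and the ratio was -0.18, so the lower level depends on which cells of the gate are counted. Without C1q cells the ratio was -0.69 (-1.10 to -0.29).

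In A20 cells Il2rg had 1408 UMIs in TAK-981 and 2114 UMIs in vehicle tumours, or 43.4 CPM in TAK-981 and 39.9 CPM in vehicle, a log2 ratio of 0.12 (0.02 to 0.22). It had a UMI in 38.7% of TAK-981 and 41.3% of vehicle A20 cells, and after thinning in 14.7% of TAK-981 and 11.6% of vehicle ones. Its ratio of 1.09-fold (1.02 to 1.16) was far within 2-fold. In A20 cells 3.46% of 12250 genes were at least 2-fold higher in the TAK-981 library and 1.5% at least 2-fold lower, and of the members with enough UMIs, Il2rb was past 2-fold upward, by the few NK-marked cells described above, and Il15ra and Il2rg were not.

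The order of levels between classes differed by gene. For Il2rg in the TAK-981 library T cells were highest, 2.35-fold (1.82 to 3.06) over myeloid cells, which were 5.15-fold (4.06 to 6.44) over A20 cells. In the vehicle library T and myeloid cells did not differ beyond their counting error, with a ratio of 0.988 (0.818 to 1.19), and T cells were 8.49-fold (7.49 to 9.60) over A20 cells. For Il15ra the T cell and A20 levels could not be ordered in either library.

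A20 cells were further split, within each library, into 3 equal groups by their UMIs of the interferon-stimulated genes after thinning. The groups spanned 0 to 5, 5 to 9 and 9 to 79 such UMIs in TAK-981 and 0 to 6, 6 to 9 and 9 to 33 in vehicle cells. The lower groups thus had like counts in both libraries, and whether the levels below follow an interferon response was not tested. From the lowest to the highest group, Il2rg was at 39.9, 41.0 and 48.4 CPM in the TAK-981 and at 35.4, 38.0 and 45.0 CPM in the vehicle library, higher in the highest group of both. Il15ra was at 1.47, 1.79 and 1.19 CPM in the TAK-981 and at 1.92, 2.02 and 2.04 CPM in the vehicle library, with no such order in the TAK-981 library. Il15 was at 0 UMIs in every group.

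**Figure D4:**
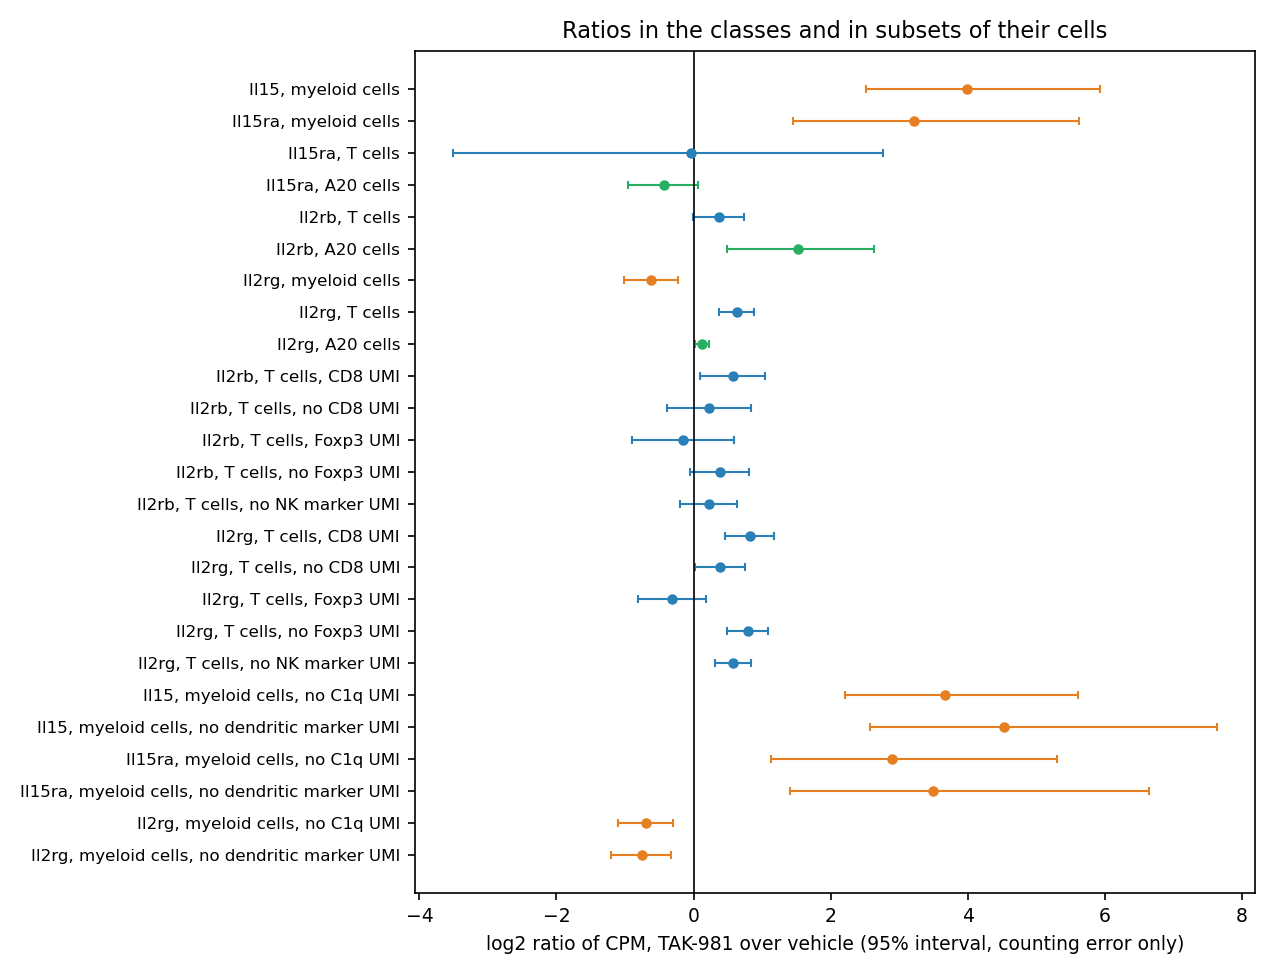
Log2 ratio of CPM (TAK-981 over vehicle) of each gene in the classes and in subsets of their cells, with exact 95% intervals that cover counting error only; the vertical line marks no difference, orange points are myeloid, blue T and green A20 cells. The myeloid ratios of Il15 and Il15ra lie right of the line in each subset shown, and the T cell ratios of Il2rg do so except in cells with a Foxp3 UMI.

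Cells with RNA for both signalling chains lay mainly in the T gate. Il2rb and Il2rg were found together in 29 of 45 TAK-981 T cells (64.4%, interval 48.8 to 78.1) and 42 of 60 vehicle T cells (70.0%, 56.8 to 81.2), and after thinning in 22 TAK-981 and 21 vehicle T cells. No myeloid cell carried both. In the A20 gate 4 TAK-981 and 4 vehicle cells did, and of the Il2rb carriers there 3 of 4 TAK-981 and 1 of 6 vehicle cells had an NK marker. By transcript, Il15 and Il15ra together were thus found in myeloid cells, and Il2rb and Il2rg together mainly in cells of the T gate, some of them with NK markers. A20 cells had Il2rg and a little Il15ra but next to no Il2rb. The counts are of RNA and say nothing of protein at the surface.

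A list of interferon and NF-kappa B pathway genes, among them factors that drive Il15 transcription, was in part higher in the TAK-981 library. The list also holds the interferon receptor genes Ifnar1 and Ifnar2 and the gene Nlrc5. Of 14 listed genes, all measured in each class, 5 were at least 2-fold higher and 0 at least 2-fold lower in T, in myeloid and in A20 cells, with median log2 ratios of 0.60, 0.62 and 0.64, against -0.04, -0.09 and 0.06 over all genes. Of all genes 6.32% in T, 10.8% in myeloid and 3.46% in A20 cells were at least 2-fold higher. Irf7, an interferon-induced transcription factor, had 560 UMIs in TAK-981 and 66 UMIs in vehicle myeloid cells, a log2 ratio of 3.64 (3.27 to 4.03). Irf1, which binds the Il15 promoter, had 139 UMIs in TAK-981 and 110 UMIs in vehicle myeloid cells, a ratio of 0.89 (0.52 to 1.27), and 0.12 (-0.38 to 0.60) in T cells. Stat2, which carries the interferon signal, had a myeloid ratio of 2.71 (1.75 to 3.81). Irf7 and Irf1 were also higher in TAK-981 than in vehicle A20 cells, by 2.25 and 0.96 on the log2 scale, and A20 cells had no Il15 UMI. Whether the listed genes bear on the Il15 level in any class was not tested.

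The 30 interferon-stimulated genes give the size of the wider response in the same cells. All 30 were at least 2-fold higher in myeloid cells of the TAK-981 library, with a median log2 ratio of 3.91, as were 25 of 26 measured in T cells (3.21) and 22 of 26 in A20 cells (2.09). Of all genes 10.8% in myeloid, 6.32% in T and 3.46% in A20 cells were at least 2-fold higher, with medians of -0.09, -0.04 and 0.06. The list was chosen with earlier results of these data known, so these counts give its size only. Ifit1, an inhibitor of foreign RNA translation, had 114 UMIs in TAK-981 and 2 UMIs in vehicle T cells, a ratio of 6.79 (4.90 to 9.85). Rsad2 (viperin), an antiviral enzyme, had 629 UMIs in TAK-981 and 3 UMIs in vehicle myeloid cells, a ratio of 8.27 (6.72 to 10.55). The Il15 ratio of 3.98 thus lay near the median of that list in myeloid cells, and the Il15ra ratio of 3.22 below it.

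Downstream of the receptor, the share of the signalling list past 2-fold was near that of all genes. In T cells 2 of 19 with enough UMIs were past 2-fold upward and 0 downward, with a median log2 ratio of 0.26, against 6.32% and 9.32% of all T cell genes. Socs1, which inhibits Jak kinases and is itself induced by cytokines, had 45 UMIs in TAK-981 and 23 UMIs in vehicle T cells, a ratio of 1.92 (1.17 to 2.72). Jak3, the kinase on the common gamma chain, had 38 UMIs in TAK-981 and 46 UMIs in vehicle T cells and a ratio of 0.68 (0.02 to 1.33), and Jak1, the kinase on CD122, had 0.33 (-0.06 to 0.71). Stat5a, Stat5b and Cish, the signal carriers and a feedback inhibitor, had ratios of -0.30, 0.47 and 0.26, each with an interval that includes 0. In myeloid cells 3 of 19 were higher and 2 lower, against 10.8% and 14.3% of all genes, among them Grb2, an adaptor protein, at -1.60 (-2.59 to -0.72). Socs1 had 53 UMIs in TAK-981 and 24 UMIs in vehicle myeloid cells, a ratio of 1.70 (0.98 to 2.46), with 20.8% of the TAK-981 and 62.5% of the vehicle count in 1 cell. In A20 cells 1 of 21 was higher and 0 lower (against 3.46% and 1.5% of all genes), Socs2 at 1.51 (0.43 to 2.67), with 21 UMIs in TAK-981 and 12 UMIs in vehicle cells.

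Of genes known to respond to interleukin-15 in T and NK cells, some were higher in the TAK-981 library. Most on the list are raised by the cytokine, and Bcl2l11, which encodes the death protein Bim, is one that it restrains. Of the 25 genes on this list, each with enough UMIs in T cells, 9 were at least 2-fold higher and 2 at least 2-fold lower, with a median log2 ratio of 0.53, against 6.32% of all T cell genes higher, 9.32% lower and a median of -0.04. Bcl2l11 had 26 UMIs in TAK-981 and 35 UMIs in vehicle T cells, a ratio of 0.53 (-0.26 to 1.30). Gzmb, a granule protease of killer cells, had 133 UMIs in 17 TAK-981 T cells and 40 UMIs in 10 vehicle T cells, a ratio of 2.69 (2.17 to 3.24). Prf1, the pore protein of the same granules, had 33 UMIs in 10 TAK-981 T cells and 10 UMIs in 6 vehicle T cells. Its ratio was 2.68 (1.62 to 3.86), with 36.4% of the TAK-981 and 30% of the vehicle count in 1 cell. Tbx21, the T-bet transcription factor, had 18 UMIs in TAK-981 and 10 UMIs in vehicle T cells, a ratio of 1.80 (0.61 to 3.08). Gzma, another granule protease, had 98 UMIs in 5 TAK-981 T cells and 19 UMIs in 2 vehicle T cells, with 57.1% of the TAK-981 and 94.7% of the vehicle count in 1 cell, so its ratio of 3.32 rests on single cells. Several of these genes also respond to other cytokines, and the part of interleukin-15 in their levels was not tested.

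The same target list was described in the other classes, and the part of interleukin-15 in these levels was not tested. In myeloid cells, where Il2rb had 0 UMIs, 7 of 16 were higher and 4 lower (against 10.8% and 14.3% of all genes). Among them were Ly6c2 at 1.79 (1.57 to 2.01) and Id2, a transcription regulator, at -2.42 (-2.97 to -1.91). Of the 7, Gzma had 19 UMIs, all in 1 TAK-981 cell, and Ccl5 had 61.5% of its TAK-981 count in 1 cell. In A20 cells 6 of 23 were higher and 1 lower (against 3.46% and 1.5% of all genes), and Bcl2l11 had 4288 UMIs in TAK-981 and 3315 UMIs in vehicle cells and a ratio of 1.08 (1.01 to 1.14). Of the 6, Gzma had 132 UMIs in 7 TAK-981 cells and 38 UMIs in 4 vehicle cells, with 58.3% of the TAK-981 and 92.1% of the vehicle count in 1 cell. The lower gene, Xcl1, had 0 UMIs in TAK-981 and 20 UMIs in 3 vehicle cells, 85.0% of them in 1 cell. The Gzma and Xcl1 calls thus rest on few cells of the gate, whereas Bcl2l11 had a UMI in 1203 TAK-981 and 1237 vehicle A20 cells.

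Few other genes of the common gamma chain family had enough UMIs for a ratio. Of 14 listed genes, 6 were measured in T cells, with 0 higher and 1 lower, which is too few to set apart from the 6.32% and 9.32% of all genes. Il2ra, the high-affinity chain of the interleukin-2 receptor, had 42 UMIs in TAK-981 and 77 UMIs in vehicle T cells, a log2 ratio of 0.08 (-0.50 to 0.64). Il21r and Il7r, receptors for interleukin-21 and interleukin-7, had ratios of -0.10 (-0.61 to 0.40) and 0.49 (-0.09 to 1.05) in T cells. Of 5 measured in myeloid cells 0 were higher and 1 lower, Il7r, with 1 UMI in 1 TAK-981 cell and 20 UMIs in 8 vehicle cells (-3.76, interval -9.14 to -1.12). One vehicle cell held 50% of these 20 UMIs. Of the 6 in A20 cells 0 were higher and 1 lower, again Il7r, with 1 UMI in 1 TAK-981 cell and 19 UMIs in 7 vehicle cells, 47.4% of them in 1 cell. The A20 value of Il7r thus rests on few cells of the gate. The cytokines Il2, Il4, Il9, Il13 and Il21 had at most 2 UMIs in any class of either library.

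Genes with a like pattern were named by Pearson's r of log2(CPM + 10) over the 6 sums of class and library, among 11061 genes, as a description without a test, since the 6 points share 2 libraries and 1 high point can set r. For Il15 these were Mboat7, Mmp8, Tnfrsf23, Dock8 and Themis2. Mmp8, a collagenase of granulocytes and monocytes, had 64 UMIs in TAK-981 and 4 UMIs in vehicle myeloid cells and 0 in T cells of both, and r was 0.997. For Il15ra they were Gm42641, Mboat7, H2afy, Slfn4 and Cnnm4, and Slfn4, an interferon-induced gene of myeloid cells, had 77 UMIs in TAK-981 and 1 UMI in vehicle myeloid cells. For Il2rb they were Tigit, Gimap3, Tnfrsf4, Camk4 and Ccr8, and for Il2rg Pnrc1, Atp2b4, Sik1, Stk10 and Mr1. Tigit, an inhibitory receptor of T and NK cells, had 256 CPM in TAK-981 and 194 CPM in vehicle T cells and 0 UMIs in myeloid cells.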

How the data were processed

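Single-cell RNA counts from 1 library per arm were analysed. Per the file headers, the deposited files hold whole-number UMI counts per gene and barcode, not normalized. Cell Ranger 2.1.1 and Seurat 2 are named in the submitters' processing notes, with no role given, and which genome build and annotation were used is not given in the sources used here. The lowest UMI total per barcode was 4670 (TAK-981) and 5965 (vehicle), so barcodes had been selected before deposit.

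From the counts, UMIs were summed over the cells of a class and divided by the class sum (Python 3.11.15, numpy 2.4.6, scipy 1.17.1, pandas 2.3.3, matplotlib 3.10.9). Ratios of TAK-981 over vehicle carry exact conditional binomial 95% intervals, levels exact Poisson and shares Clopper-Pearson ones. These cover counting error only and are too narrow where a few cells hold most UMIs. No ratio was formed where both counts were at or under 3. A count of 0 was set to a floor of 3 over the class. No p-value was computed, since each arm has 1 library. The ratio and its interval were checked only on counts simulated as independent Poisson draws. The interval makes the same assumption, so that check cannot speak to UMIs held by few cells or to differences between mice. No doublet caller was run, and cells with B cell or A20 UMIs were left out in an alternative. No cell fell in both the T and the myeloid gate.

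Of each gene list, the genes past 2-fold with an interval that left out 0 (the 6 largest per class) and 10 receptor and kinase genes could be named. The 4 genes, the gates and the lists were chosen with earlier results of these data known. Alternatives changed the scaling, the depth, the gates, the mitochondrial limit and the cells kept. In GENCODE vM21 a longer gene on the same strand, Gm20489, overlaps Il2rg and had 0 UMIs in both libraries, so reads shared with it could be lost.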

Additional observations from a re-analysis of the deposited data

Results flagged for a closer look

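Il2rg differed in direction between cell classes. Its log2 ratio of TAK-981 over vehicle was 0.63 in T cells and -0.62 in myeloid cells, each with a counting interval that left out 0, a difference of 1.25. Against A20 cells, at 0.12, the myeloid ratio differed by 0.74. With 1 library per arm neither difference was tested, and the myeloid ratio was -0.18 in cells without dendritic cell or neutrophil markers.

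In kept cells outside the 3 gates, which the comparisons leave out, Il2rg had 76 UMIs in 182 TAK-981 cells and 48 UMIs in 160 vehicle cells, or 41.4 CPM in TAK-981 and 23.1 CPM in vehicle, a log2 ratio of 0.84 (0.30 to 1.39). The highest cell of the vehicle library held 25.0% of its count. At equal depth 15.4% of these TAK-981 and 6.88% of these vehicle cells kept a UMI. B cell or A20 markers had a UMI in 173 of 182 TAK-981 and 150 of 160 vehicle cells, and the part these play in the ratio was not tested.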

How the results depend on the processing

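No paired analysis was possible because each arm has 1 library. Over 9 ratios and 102 alternative values, 98 lay within the counting interval of the reported value and 100 kept its sign. Many alternatives reuse the same UMIs, and a wide interval is hard to leave, as that of Il15ra in T cells (-3.51 to 2.76). The pooled count is therefore no measure of how firm a ratio is. The myeloid ratios ranged from 2.76 (thinned cells) to 4.69 for Il15 and from 2.76 to 4.28 for Il15ra, those of T cells from 0.49 to 0.69 for Il2rg and from 0.13 to 0.42 for Il2rb. Without cells carrying dendritic cell or neutrophil markers the Il15 value of 2.96 is a bound against 0 UMIs, and Il2rg in myeloid cells moved to -0.18. Il2rg in A20 cells was 0.33 in thinned cells. Il2rb in A20 cells changed sign to -0.44 with Cd79a of at least 5 and to -2.29 without NK-marked cells, which hold most of its UMIs; without cells with any host transcript too few UMIs were left for a value. With at least 50 UMIs per gene, 3.39% of genes in T cells and 1.33% in A20 cells were at least 2-fold higher, and 2.57%, 6.06% and 0.188% in T, myeloid and A20 cells at least 2-fold lower. The alternatives on thinned gates, C1q cells and NK-marked A20 cells were chosen after seeing the data. Low counts limit most: Il15 and Il15ra rest on 4 and 3 vehicle UMIs.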
